A study of Dugesia japonica with 4 samples.

Results

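The heat shock proteins and chaperones of the planarian Dugesia japonica were 57 of the 15850 assembled transcript features measured in its heads. They were chosen by protein name alone, as names that hold heat shock, Hsp, DnaJ, chaperonin, T-complex protein, chaperone, prefoldin, calreticulin, calnexin, disulfide-isomerase or peptidyl-prolyl, without names of factor binding proteins. The exact spelling found 54 features, and 3 more had the same words with spaces in place of hyphens. No member was named calnexin, and a short piece named 90 kDa heat shock protein was the one member of the Hsp90 family.

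Planarians are freshwater flatworms able to regrow a head, and barium closes potassium channels. The BaCl2 group held new, BaCl2-insensitive heads from worms that spent 35 days in a 1 mM solution, and the control group held heads of wild type worms for which the labels give neither exposure nor regrowth. Exposure and regrowth therefore cannot be told apart, and the labels name 10 °C for worms in BaCl2 without saying how control worms were kept or fed. Each group had 2 RNA sequencing libraries, labelled as biological replicates of 25 worms. Poly(A) RNA of the amputated heads was sequenced. The deposited levels are FPKM, which divide a feature's fragments by its length and by a size factor of the library. That factor did not follow the totals of recovered fragments. A fit on those totals (limma voom) gave log2 folds higher by 0.19 at the median than the same fit on the deposited scale. Because heads are mixtures of cell types, fewer cells of a type and less RNA per cell cannot be told apart.

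Chaperones are proteins that help other proteins reach or keep their fold. In the cytosol, Hsp70 binds unfolded stretches, J-proteins of the DnaJ family bring it clients, Hsp90 finishes the folding of signalling proteins, small heat shock proteins hold clients that have begun to unfold, and the T-complex ring folds actin and tubulin that prefoldin delivers. The endoplasmic reticulum has its own set, in which calreticulin holds glycoproteins and disulfide-isomerases make and rearrange disulfide bonds, and mitochondria fold imported proteins in a chamber of Hsp60 capped by its small partner Hsp10. Many of these genes are induced when unfolded protein builds up.

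By their names, 22 features belonged to the cytosol, 10 to the endoplasmic reticulum and 4 to mitochondria. For 21 the name did not settle a compartment, among them all 11 peptidyl-prolyl isomerases. The names came from the closest protein in the depositors' annotation, which was a Dugesia japonica protein for 4 features, a Schmidtea mediterranea protein for 6 and a protein of another flatworm, mostly a fluke or tapeworm, for 47. The 57 features lay on 50 contigs, so some are pieces of 1 gene. For example, the 4 DnaJ subfamily C member 2 features lay at 1210 to 1331, 2025 to 2683, 3208 to 4049 and 4117 to 4419 of 1 contig. Their median length was 530 nt, against 332 nt over all features. Fragments of closely related copies, as in the Hsp70 family, may have been shared out between features, and this was not tested.

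The recovered fragments numbered 3395482 and 6875650 in the BaCl2 libraries and 5901128 and 8304632 in the control libraries. A total of 45 chaperone features had at least 100 fragments over the 4 libraries and were tested, and 12 had fewer. The full set of 57 held between 34 and 132651 fragments each. In a 400 nt feature, 1 fragment was worth 0.293 and 0.174 FPKM in the BaCl2 libraries and 0.225 and 0.146 FPKM in the control libraries. Of the markers of head tissue, all 35 neuronal features had fragments in both groups and 31 had them in every library, while each of the 4 opsin and arrestin features had fewer than 100 fragments. Together these 4 summed to 564 and 338 FPKM in BaCl2 heads, against 10.7 and 58.3 FPKM in control heads. The log2 fold was above 0 in 12 of 16 tested neuronal features (median 0.34), in 17 of 23 tested muscle features (median 0.33) and in 0 of 5 tested neoblast features (median -0.83). Over all features 39.1% were above 0, with a median of -0.15. From these 3 lists 0 features passed, beside 1.42% of all features. Of 14 tested intestinal features 7 had a log2 fold above 0 and 7 below (median -0.02, lowest -8.84). Of the 14, 1 passed, as lower, beside 1.22% lower of all features. All 17 listed intestinal features summed to 988 and 1221 FPKM in BaCl2 heads, against 2780 and 2744 FPKM in control heads. The part of the feature at -8.84 in these sums was not tested. The 2 cubilin features listed for excretory cells, both under 100 fragments, summed to 1.34 and 1.59 FPKM in BaCl2 heads, against 3416 and 3701 FPKM in control heads, and 1 of them was at 0 in both BaCl2 libraries. The opsin, arrestin and cubilin sums rest on few fragments, which short features turn into many FPKM. At 100 nt, 1 fragment was worth 22.3 and 13.2 FPKM in the BaCl2 libraries and 17.1 and 11.1 FPKM in the control libraries. The part of these tissues in the chaperone values was not tested.

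None of the 45 tested chaperone features passed the test between BaCl2 and control heads, in either direction, where 1.42% of all 7983 tested features did, 0.2% higher and 1.22% lower (limma on log2(FPKM + 1), adjusted p under 0.05). The lowest adjusted p was 0.185. At an unadjusted p under 0.05 there were 5 members of 45, beside 18.8% of all features. Log2 folds of the members (BaCl2 over control) ran from -1.07 to 1.11 with a median of -0.21, while the median over all tested features was -0.15. A log2 fold above 0 was found in 12 of the 45 members (26.7%) and in 39.1% of all features. Median-ratio rescaling shifted the folds upward by 0.16 at the median. On that scale 20 of the 45 members were above 0 (44.4%), beside 50.7% of all features, and 0 members passed, beside 0.438% of all features.

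A missed threshold does not show that a level was the same, and the 95% intervals say how much room was left. For 21 of the 45 members the interval lay within a 2-fold change either way, beside 36.7% of all features (intervals not adjusted for the number of features). The authors' deposited table gave 0 of the 57 a q-value under 0.05, beside 3.43% of its 15850 features, and its lowest q-value among them was 0.0676, for the feature named chaperone protein DnaJ. Leaving out BaCl2 replicate 2 was the one omission that gave calls. There, 6 of the 45 passed (2 higher and 4 lower), beside 12% of all features (2.97% higher and 9.02% lower), and the comparison then rests on a single BaCl2 library.

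**Figure D1:**
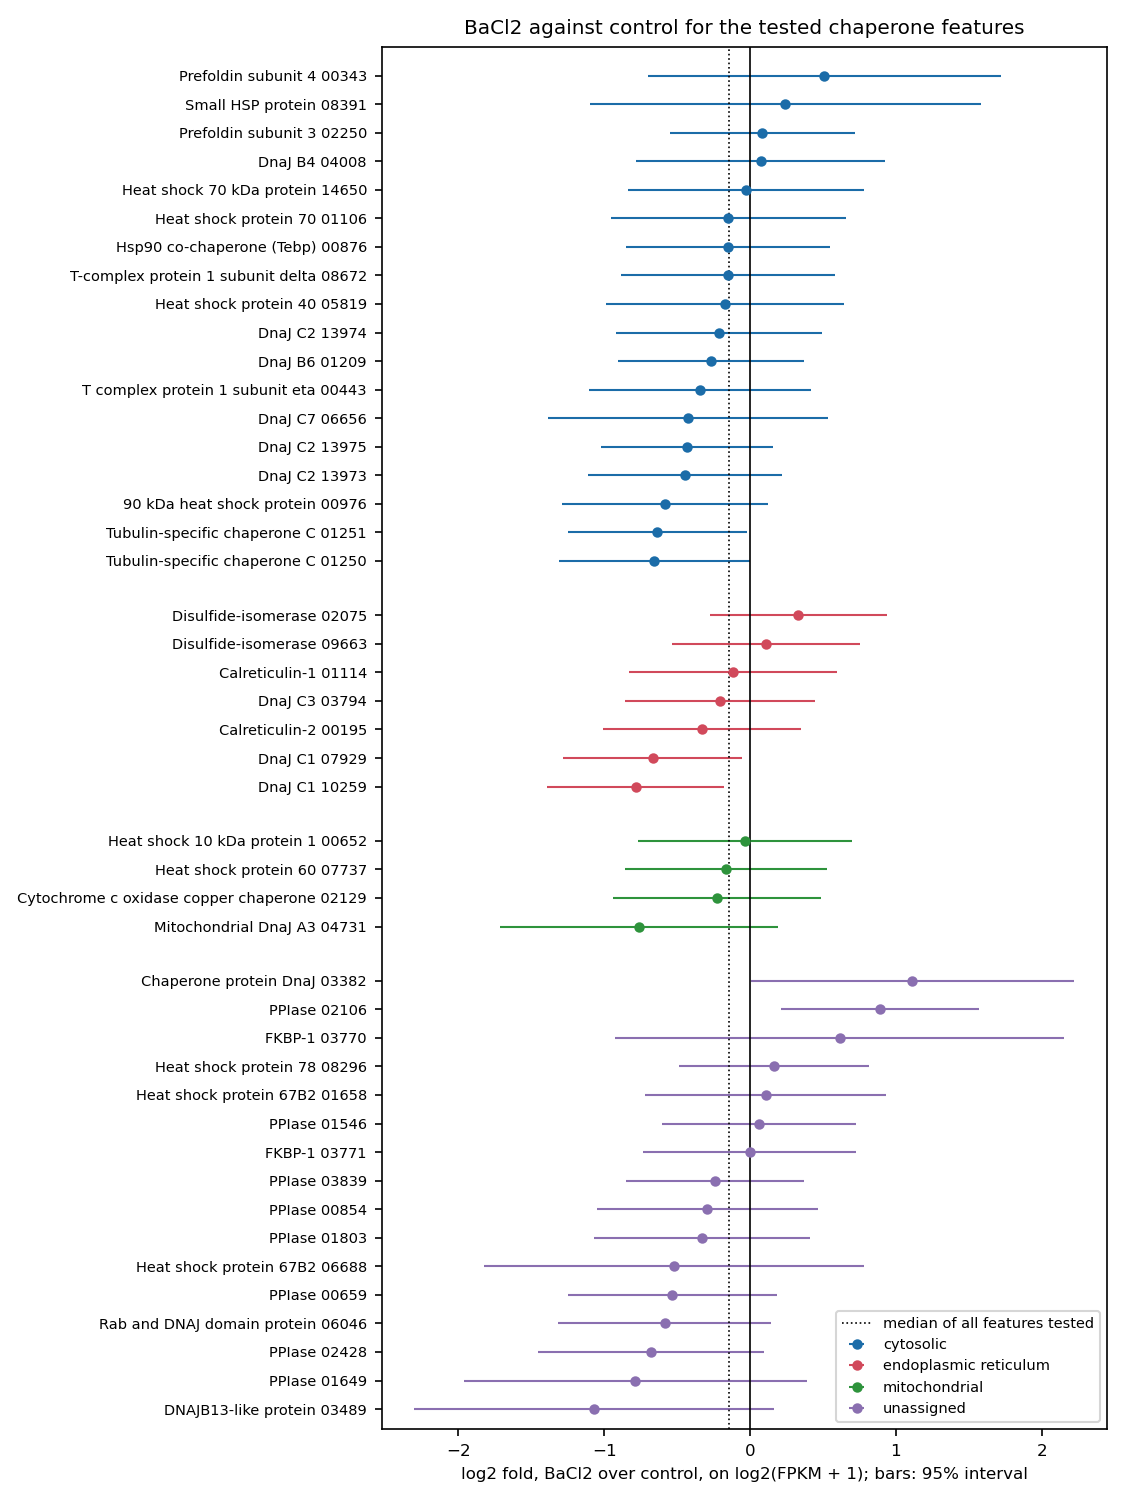
Log2 fold of BaCl2 over control heads on the log2(FPKM + 1) scale for the 45 tested chaperone features, with limma 95% intervals, by compartment; labels end in the last digits of the feature ID, and the dotted line is the median of all tested features (-0.15). Points run from -1.07 to 1.11, and 5 intervals lie wholly on one side of 0.

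**Figure D2:**
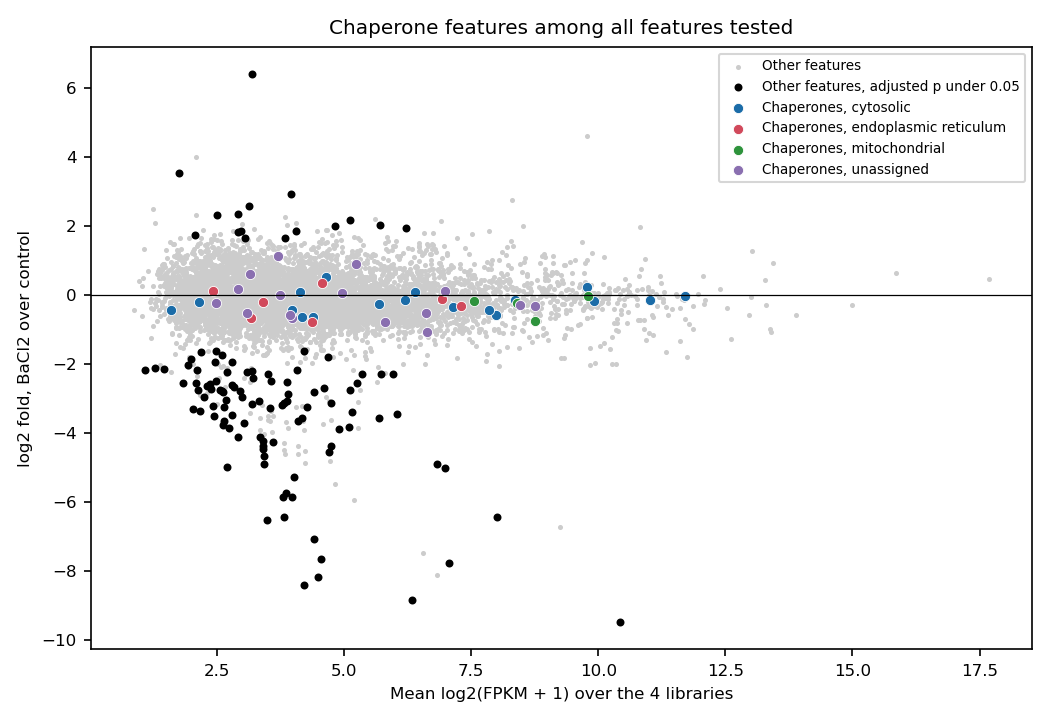
Log2 fold of BaCl2 over control heads against the mean log2(FPKM + 1) over the 4 libraries for the 7983 tested features. Black points are the 113 features that passed, and none of the coloured chaperone points is among them.

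Cytosolic chaperones were the most abundant. The heat shock 70 kDa protein feature (TCONS_00014650, 213 nt) had 3416 and 3205 FPKM in BaCl2 heads, against 3073 and 3686 FPKM in control heads. Its groups overlapped, and it ranked 29 of 7983 by mean FPKM. That rank rests on a length near the assumed mean fragment length of 200 nt, which turns few fragments into many FPKM. The feature held 12748 fragments, against 132651 for heat shock protein 40, which ranked 140. The log2 fold of the 213 nt feature was -0.02 (95% interval -0.83 to 0.78, limma adjusted p = 0.973). A longer Hsp70 feature annotated from Dugesia japonica (TCONS_00001106, 486 nt) had 1971 and 1971 FPKM in BaCl2 heads, against 1926 and 2477 FPKM in control heads. The BaCl2 values lay between the control values, and the log2 fold was -0.15 (-0.95 to 0.66). Hsp70 RNA was thus abundant in both groups, and both intervals lay within a 2-fold change either way.

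Over all compartments 18 features carried a DnaJ name, and 0 of the 13 tested ones passed. Of these, 2 had a log2 fold above 0 and 11 below, also after median-ratio rescaling, and 3 and 10 with voom on library totals. Over all features 39.1% were above 0, 50.7% after rescaling and 52.5% with voom on library totals. The median of the 13 was -0.43 (-0.28 after rescaling), beside -0.15 (0.01) over all features. The 13 include 3 pieces of DnaJ subfamily C member 2 on 1 contig, so they are not independent of each other. Among the tested cytosolic J-proteins, which bring clients to Hsp70, only DnaJ subfamily B member 4 had a log2 fold above 0 on the deposited scale, at 0.07. Heat shock protein 40 (TCONS_00005819) had 758 and 1080 FPKM in BaCl2 heads, against 1067 and 971 FPKM in control heads, and the groups overlapped (log2 fold -0.17, interval -0.99 to 0.65). DnaJ subfamily C member 7, a co-chaperone that in mammals binds both Hsp70 and Hsp90, had 139 and 280 FPKM in BaCl2 heads, against 264 and 267 FPKM in control heads. Only BaCl2 replicate 1 stood below the others, and the log2 fold of -0.42 (adjusted p = 0.575) became -0.93 (adjusted p = 0.0459) without BaCl2 replicate 2. DnaJ subfamily B member 4 had 102 and 71.5 FPKM in BaCl2 heads, against 64.3 and 103 FPKM in control heads, so control replicates differed 1.60-fold, while the ratio of group means was 1.04. DnaJ subfamily B member 6, which in mammals hinders protein aggregation, had 43.3 and 48.3 FPKM in BaCl2 heads, against 52.7 and 58.2 FPKM in control heads. These groups did not overlap, and the log2 fold was -0.27 (adjusted p = 0.592). The 3 tested pieces of DnaJ subfamily C member 2, a ribosome-associated J-protein, had log2 folds of -0.44, -0.43 and -0.21, and its shortest piece (122 nt) held 4 and 6 fragments in BaCl2 heads and 5 and 19 in control heads.

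Neither Hsp90 nor its helper passed. The 90 kDa heat shock protein feature (TCONS_00000976, 243 nt) had 200 and 212 FPKM in BaCl2 heads, against 338 and 283 FPKM in control heads. Its groups did not overlap, and the ratio of means was 0.66. The log2 fold was -0.58 (interval -1.29 to 0.12, adjusted p = 0.327). The Hsp90 co-chaperone Tebp, known in mammals as p23, had 308 and 314 FPKM in BaCl2 heads, against 360 and 330 FPKM in control heads, with a log2 fold of -0.15 (-0.85 to 0.55) that turned to 0.02 after median-ratio rescaling and 0.07 with voom on library totals. The fold of the 90 kDa feature was -0.42 and -0.38 on those scales. The putative Hsp70-interacting protein had 15 and 7 fragments in BaCl2 heads, against 13 and 6 in control heads, under the minimum of 100.

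Small heat shock proteins bind unfolding proteins without using ATP. The small HSP feature (TCONS_00008391, 850 nt, annotated from Dugesia japonica) had 1382 and 661 FPKM in BaCl2 heads, against 518 and 1263 FPKM in control heads. BaCl2 replicate 1 and control replicate 2 were high and the other two libraries low. The higher library held 2.09 times the lower one in BaCl2 heads and 2.44 times in control heads, while the ratio of group means was 1.15. Each library held at least 7529 fragments of it. The log2 fold was 0.24 (interval -1.10 to 1.58, adjusted p = 0.831).

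The cytosolic chaperonin was seen through 4 features of 3 subunits. T-complex protein 1 subunit eta had 103 and 152 FPKM in BaCl2 heads, against 160 and 158 FPKM in control heads, and subunit delta (TCONS_00008672) had 56.7 and 82.9 FPKM in BaCl2 heads, against 76.9 and 75.8 FPKM in control heads. In both, BaCl2 replicate 1 was the lowest library and the control libraries were close together. Their log2 folds were -0.34 and -0.15 (adjusted p = 0.568 and 0.804). The theta subunit feature, of 222 nt and singled out after its values were seen, had 0 and 2 fragments in BaCl2 heads, against 11 and 24 in control heads. It fell under the minimum of 100 fragments. With a minimum of 30 fragments its log2 fold was -3.20 (interval -4.69 to -1.71), the lowest of all members, and it did not pass (adjusted p = 0.189, and 0.318 and 0.319 with a minimum of 1 FPKM and with no filter). A second delta feature of 258 nt held 4 and 1 fragments in BaCl2 heads, against 6 and 24 in control heads, with a log2 fold of -1.54 (adjusted p = 0.408) at the minimum of 30.

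Prefoldin hands newly made actin and tubulin to that ring. Prefoldin subunit 3 had 19.6 and 14.9 FPKM in BaCl2 heads, against 16.8 and 15.4 FPKM in control heads, and subunit 4 had 48.7 and 17.1 FPKM, against 24.7 and 16.3 FPKM. The groups overlapped in both. Tubulin-specific chaperone C, which acts in the last steps of tubulin dimer folding, had a feature (TCONS_00001251) with 15.1 and 12.2 FPKM in BaCl2 heads, against 21.2 and 22 FPKM in control heads. A second piece on the same contig (TCONS_00001250) had 17.5 and 14.1 FPKM in BaCl2 heads, against 22.6 and 28.5 FPKM in control heads. Both pieces were lower in both BaCl2 libraries, with log2 folds of -0.63 and -0.66, but neither passed (adjusted p = 0.255 and 0.266). They lie on 1 contig and are not independent of each other.

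**Figure D3:**
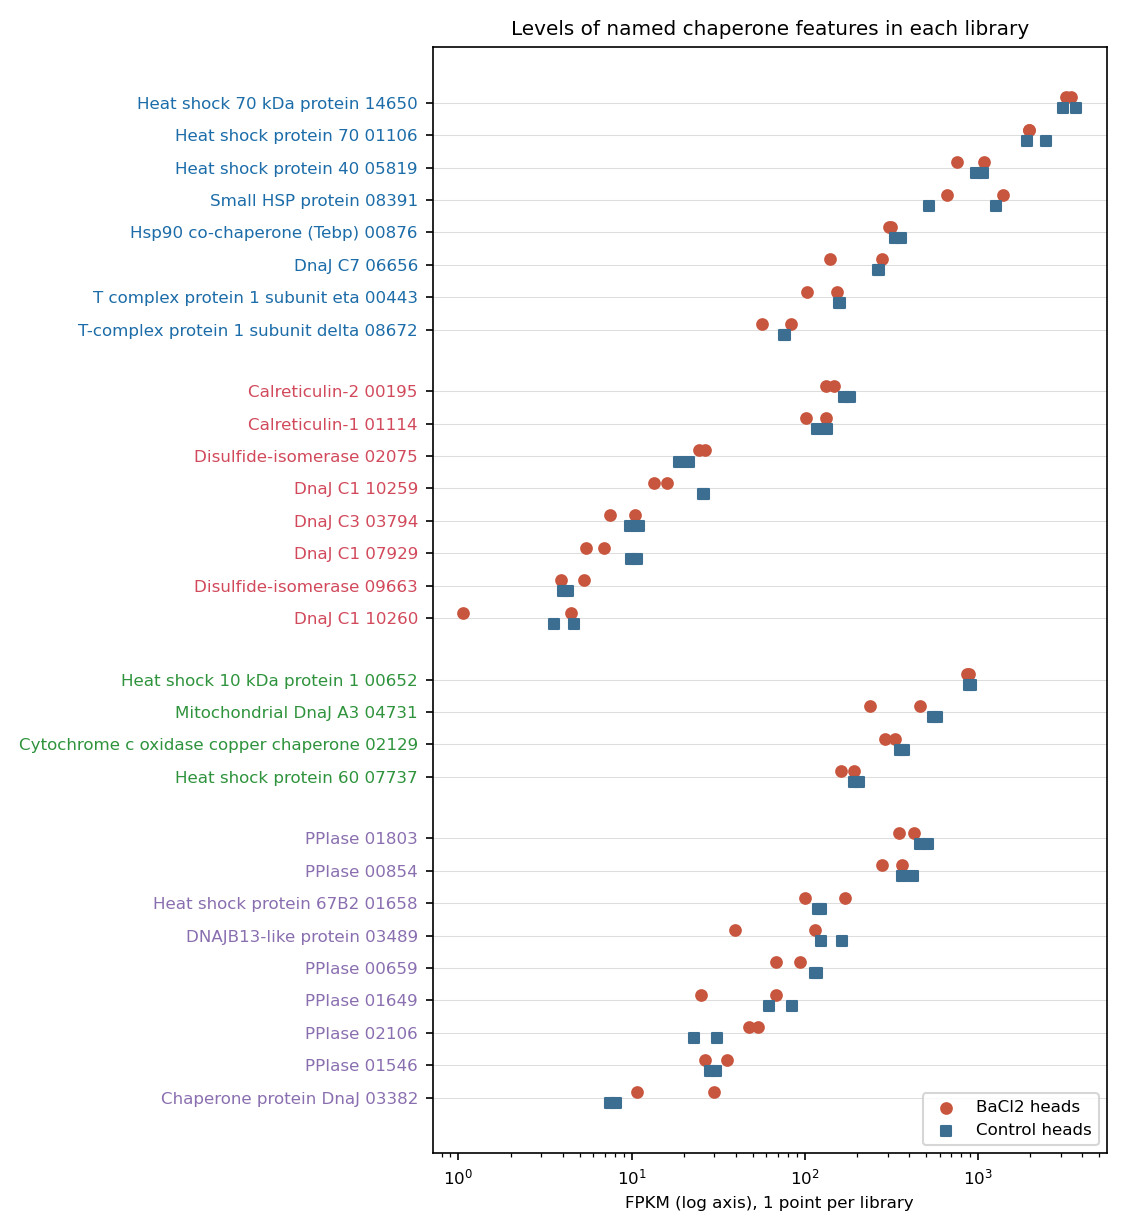
FPKM on a log axis in each of the 4 libraries for the 29 named chaperone features, BaCl2 heads (circles) above control heads (squares), coloured by compartment: cytosolic, endoplasmic reticulum, mitochondrial and unassigned from top to bottom. The Hsp70 features sit between 1926 and 3686 FPKM in all libraries, and the small HSP feature spreads more within each group than between the groups.

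In the endoplasmic reticulum, calreticulins were the most abundant. Calreticulin-1 had 101 and 132 FPKM in BaCl2 heads, against 133 and 118 FPKM in control heads, and the groups overlapped (log2 fold -0.12, interval -0.83 to 0.59). Calreticulin-2 had 132 and 147 FPKM in BaCl2 heads, against 182 and 169 FPKM in control heads, groups that did not overlap (log2 fold -0.33, adjusted p = 0.537). Protein disulfide-isomerase (TCONS_00002075) had 24.4 and 26.6 FPKM in BaCl2 heads, against 21.3 and 18.9 FPKM in control heads (log2 fold 0.33, adjusted p = 0.493). Both BaCl2 values lay above both control values, as in 3 of the 45 tested members and in 19.1% of all features. Another disulfide-isomerase contig carried 2 pieces, of which the longer (TCONS_00009663) had 5.29 and 3.88 FPKM in BaCl2 heads, against 4.01 and 4.27 FPKM in control heads.

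J-proteins anchored in that membrane gave the lowest folds of the 7 tested members of the compartment. DnaJ subfamily C member 1, which in mammals recruits the lumenal Hsp70 to the ribosome and the import channel, was represented on 2 contigs. On the first (TCONS_00010259) it had 13.5 and 15.9 FPKM in BaCl2 heads, against 26.3 and 25.8 FPKM in control heads. On the other (TCONS_00007929) it had 5.45 and 6.95 FPKM in BaCl2 heads, against 10.8 and 9.96 FPKM in control heads. The BaCl2 values were below the control values throughout, by log2 folds of -0.78 (interval -1.39 to -0.18, adjusted p = 0.187) and -0.67 (interval -1.28 to -0.05, adjusted p = 0.235). Neither passed, and no sequences were compared to tell whether these are 2 genes. On library totals, which limma voom used on recovered fragments, the log2 folds were -0.61 and -0.52 (adjusted p = 0.146 and 0.214). The second piece of the first contig (TCONS_00010260) held 20 and 8 fragments in BaCl2 heads, against 27 and 32 in control heads. DnaJ subfamily C member 3, an inhibitor of stress kinases that acts as a lumenal co-chaperone in mammals, had 7.51 and 10.5 FPKM in BaCl2 heads, against 9.83 and 11.0 FPKM in control heads. DnaJ subfamily B member 9, induced by unfolded protein in mammals, had only 29 and 13 fragments in BaCl2 heads, against 9 and 19 in control heads.

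All 4 mitochondrial members had a log2 fold below 0 on the deposited scale, against 2 of 4 after median-ratio rescaling and with voom on library totals, and none passed. Heat shock protein 60 had 162 and 192 FPKM in BaCl2 heads, against 204 and 193 FPKM in control heads (log2 fold -0.16, interval -0.86 to 0.53). Its partner, heat shock 10 kDa protein 1, had 863 and 881 FPKM in BaCl2 heads, against 909 and 880 FPKM in control heads. The 4 libraries were close together and the groups overlapped, with a log2 fold of -0.04 (interval -0.77 to 0.70). The cytochrome c oxidase copper chaperone, which carries copper to the respiratory enzyme and is no folding chaperone, had 289 and 333 FPKM in BaCl2 heads, against 375 and 352 FPKM in control heads.

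The mitochondrial J-protein DnaJ subfamily A member 3 had the lowest fold of this compartment. It had 239 and 463 FPKM in BaCl2 heads, against 580 and 552 FPKM in control heads, from at least 4428 fragments in each library. Both BaCl2 values lay below both control values, but BaCl2 replicate 2 held 1.94 times as much as replicate 1. The log2 fold was -0.76 (interval -1.72 to 0.19, adjusted p = 0.339). It passed without BaCl2 replicate 2 (log2 fold -1.24, adjusted p = 0.0321) and in no other setting. In each of the 4 mitochondrial members BaCl2 replicate 1 was the lowest of the 4 libraries, which was so in 25 of the 45 tested chaperones and in 45% of all features.

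Peptidyl-prolyl isomerases speed the turning of proline bonds during folding, and they include the cyclophilins and FK506-binding proteins. The most abundant (TCONS_00001803) had 351 and 427 FPKM in BaCl2 heads, against 515 and 460 FPKM in control heads, and the next (TCONS_00000854) had 278 and 364 FPKM, against 420 and 361 FPKM. These groups did not overlap in the first and overlapped in the second. A further one (TCONS_00000659) had 68.2 and 94.0 FPKM in BaCl2 heads, against 118 and 115 FPKM in control heads (log2 fold -0.53, adjusted p = 0.366). In another (TCONS_00001649), with 25.0 and 68.3 FPKM in BaCl2 heads, against 61.9 and 84.3 FPKM in control heads, BaCl2 replicate 1 alone was low, and it passed only without BaCl2 replicate 2 (adjusted p = 0.0397).

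A single isomerase went the other way in both BaCl2 libraries. TCONS_00002106, of 665 nt, had 47.3 and 53.8 FPKM in BaCl2 heads, against 23.0 and 31.1 FPKM in control heads. The groups did not overlap and the ratio of means was 1.87. Its log2 fold of 0.89 (interval 0.21 to 1.57) had the lowest adjusted p of all members, 0.185, and did not pass. The adjusted p was 0.0696 with voom on library totals and 0.0847 with a replicate block, and between 0.0918 and 0.910 in the other settings. The isomerase TCONS_00001546 had 26.5 and 35.4 FPKM in BaCl2 heads, against 30.5 and 28.3 FPKM in control heads, and of the 10 tested isomerases 3 had a log2 fold above 0 and 7 below (4 and 6 after median-ratio rescaling). FKBP-1 was covered by a longer piece (TCONS_00003771) with a log2 fold of 0.00 and a shorter one (TCONS_00003770) at 0.61. The shorter piece had 21.95 FPKM in BaCl2 replicate 1 and 4.29 FPKM in BaCl2 replicate 2, against 6.32 and 6.1 FPKM in control heads. It was 1 of the 2 features that passed as higher without BaCl2 replicate 2 (adjusted p = 0.028).

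The other was the feature named chaperone protein DnaJ (TCONS_00003382, 440 nt), the member with the highest fold. It had 30.04 and 10.7 FPKM in BaCl2 heads, against 7.49 and 8.16 FPKM in control heads. Both BaCl2 libraries were above both control libraries, but BaCl2 replicate 1 held 2.80 times as much as replicate 2. The log2 fold was 1.11 (interval 0.00 to 2.22, adjusted p = 0.264), 0.41 without BaCl2 replicate 1 (adjusted p = 0.373) and 1.82 without BaCl2 replicate 2 (adjusted p = 0.0247). With the replicate number as a block it passed (adjusted p = 0.00895) as the only member, beside 11.9% of all features.

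Among the 45 members with at least 100 fragments, the lowest fold belonged to a J-protein of cilia. The DNAJB13-like feature (TCONS_00003489), annotated from Schmidtea mediterranea and in mammals part of the radial spokes of cilia and sperm tails, had 39.7 and 115 FPKM in BaCl2 heads, against 125 and 164 FPKM in control heads. BaCl2 replicate 1 was far below the other libraries. The log2 fold was -1.07 (interval -2.30 to 0.16, adjusted p = 0.309), and -1.82 without BaCl2 replicate 2 (adjusted p = 0.0271). Beside it, the list of cilia and epidermal markers (tektins, radial spoke proteins and intermediate filaments) had 2 of its 8 tested features lower and 0 higher, beside 1.22% lower and 0.2% higher of all features. The median log2 fold of the list was -0.74 (-0.58 after median-ratio rescaling), beside -0.15 (0.01) over all features. All 10 listed features together held 4408 and 7313 FPKM in BaCl2 heads, against 6587 and 6726 FPKM in control heads, and none was at 0 in both libraries of a group. The part of ciliated cells in the fold of the DNAJB13-like feature was not tested.

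Of the other features with no settled compartment, heat shock protein 67B2 (TCONS_00001658, named after a Drosophila locus) had 170 and 101 FPKM in BaCl2 heads, against 124 and 119 FPKM in control heads (log2 fold 0.11). Another feature of that name (TCONS_00006688) had 11.95 and 2.88 FPKM, against 9.48 and 8.89 FPKM (log2 fold -0.52, adjusted p = 0.612). A further one (TCONS_00000220) held 60 fragments and was not tested. Heat shock protein 78 (TCONS_00008296) had 5.86 and 8.14 FPKM in BaCl2 heads, against 6.46 and 5.71 FPKM in control heads. The groups overlapped in all of these features. The heat shock transcription factor, which switches on heat shock genes, had 20 and 23 fragments in BaCl2 heads, against 25 and 21 in control heads. It was among the 12 members under the minimum of 100 fragments, and none of those 12 was at 0 in both libraries of a group.

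How far libraries of a group differed set the limit of these comparisons. Over the tested chaperones the median absolute log2 difference was 0.37 between the BaCl2 libraries and 0.14 between the control libraries, and over all tested features it was 0.42 and 0.20. Both the chaperones and the rest thus differed more between the BaCl2 libraries, of which replicate 1 had the fewest fragments of the 4. In 23 of the 45 members the 2 groups did not overlap, with BaCl2 heads higher in 3 and lower in 20. Over all features this share was 19.1% higher and 36.4% lower. With fragments as a share of the library total it was 8 higher and 11 lower of 45, beside 29.3% higher and 24.6% lower of all features, so the balance of the 2 directions depends on the scale.

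The plot of summed levels gives chaperone RNA by compartment. All 57 features together took 2.30% and 2.2% of the fragments in BaCl2 heads, against 2.02% and 2.41% in control heads. Cytosolic members held 8652 and 8195 FPKM in BaCl2 heads, against 8071 and 9911 FPKM in control heads. Endoplasmic reticulum members held 319 and 354 FPKM in BaCl2 heads, against 401 and 369 FPKM in control heads. As a share of fragments the order of the groups turned round for these, with 0.138% and 0.139% in BaCl2 heads, against 0.133% and 0.133% in control heads. The sum of the mitochondrial members was lower on both scales, with 1553 and 1869 FPKM in BaCl2 heads, against 2067 and 1976 FPKM in control heads, and 0.297% and 0.370%, against 0.390% and 0.405% of fragments. Most of that difference lay in DnaJ subfamily A member 3, whose log2 fold with voom on library totals was -0.54. On that scale heat shock protein 60 was at 0.05, heat shock 10 kDa protein 1 at 0.18 and the copper chaperone at -0.01. An exact two-sided permutation test of 2 libraries against 2 cannot go below p = 0.333. It gave that value for the endoplasmic reticulum and the mitochondrial sums on both scales.

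**Figure D4:**
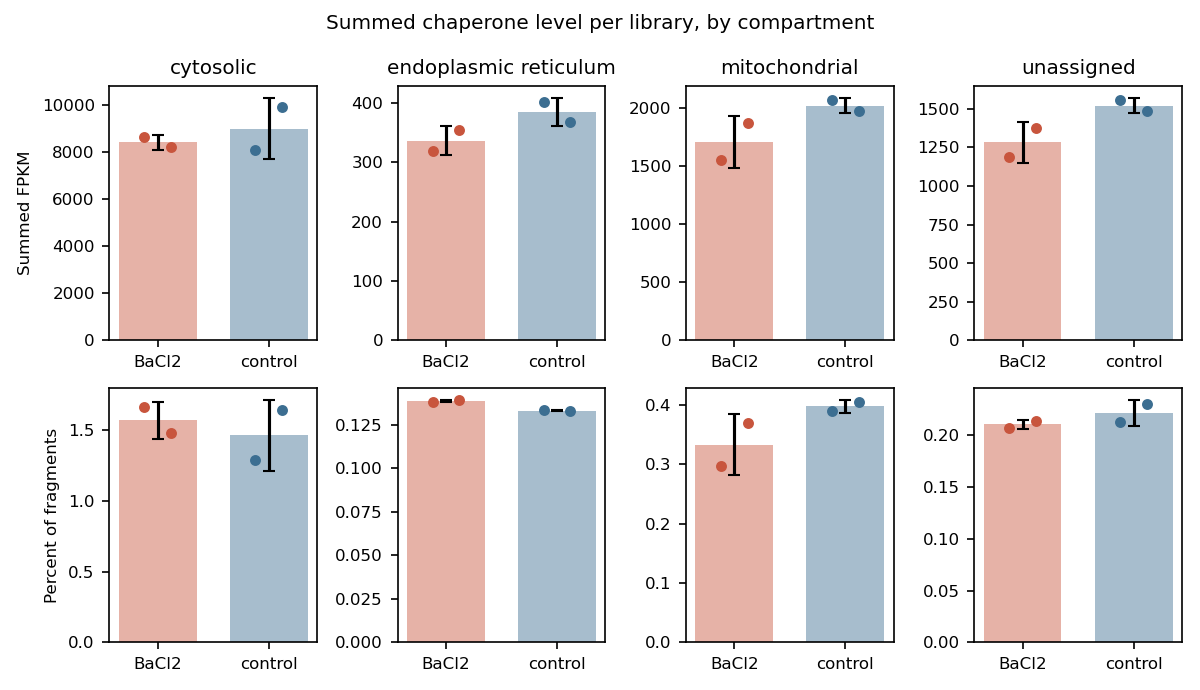
Summed chaperone level in BaCl2 and control heads by compartment, as FPKM (top) and as percent of all fragments (bottom); bars are means of 2 libraries with SD, and points are single libraries. The endoplasmic reticulum sum is lower in BaCl2 heads in FPKM and higher as a share of fragments, while the mitochondrial sum is lower on both scales. Most of the mitochondrial difference lies in DnaJ subfamily A member 3.

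A further 27 features belonged to other parts of protein quality control, such as mitochondrial proteases and enzymes that clear misfolded protein from the endoplasmic reticulum. Of these 14 had enough fragments, and 0 passed in either direction, beside 1.42% of all features. On the deposited scale 1 had a log2 fold above 0 and 13 below, beside 39.1% above 0 over all features. After median-ratio rescaling these were 5 and 9, beside 50.7% above 0. The median on the deposited scale was -0.34, beside -0.15 over all features. The lowest fold was that of the mitochondrial Clp protease subunit, with 25.9 and 35.9 FPKM in BaCl2 heads, against 55.4 and 57.4 FPKM in control heads (log2 fold -0.86, adjusted p = 0.198). The mitochondrial protease AFG3-like protein 2 was the single one above 0, at 0.71 (adjusted p = 0.264). GrpE, which recycles mitochondrial Hsp70, had 200 and 187 FPKM in BaCl2 heads, against 213 and 201 FPKM in control heads. The mortalin-like protein, that Hsp70 itself, had 74.7 and 121 FPKM in BaCl2 heads, against 132 and 100 FPKM in control heads. Ubiquilin-1, which takes tagged proteins to the proteasome, had 45.8 and 69.4 FPKM in BaCl2 heads, against 87.7 and 91.8 FPKM in control heads (log2 fold -0.66, adjusted p = 0.306). Glucose-regulated protein 78, the Hsp70 of the endoplasmic reticulum, was present as a 239 nt piece with 11 and 5 fragments in BaCl2 heads, against 10 and 19 in control heads, under the minimum of 100.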

How the data were processed

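The authors deposited FPKM values per assembled feature in 3 tables, per the file headers: one pools the libraries of a group, and each of the others holds 1 BaCl2 and 1 control library. The deposited log2 fold change column (BaCl2 over control) entered no test. The p-value and q-value columns are the authors' own comparison, and q-values alone are quoted. Tools named in the submitters' processing notes, without roles, are TopHat2 2.0.13, Cufflinks 2.2.1, Cuffdiff, TopHat and Bowtie. No genome build is named in the sources used here.

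Pooled values were a fixed weighted sum of replicate values (within 0.1% in 15202 of 15204 features), and the weights put the 4 libraries on 1 scale. For 376 features absent from one replicate table, none a chaperone, the pooled value gave the library values. Fragments were recovered from FPKM by assuming lengths with mean 200 nt, SD 80 nt and limits of 28 and 440 nt, and 99.8% to 99.9% of checked values were whole within 0.1 fragments. Fragment numbers cover counting error only.

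BaCl2 and control libraries were compared with limma 3.58.1 in R 4.3.3 (two-sided, moderated with a mean trend, no block) on log2(FPKM + 1), over all features with at least 100 fragments. P-values were adjusted by Benjamini-Hochberg over all of them, with 2 residual degrees of freedom. A log2 fold on that scale understates the change of low features. The procedure was tested on simulated data with the same spread in both groups, scaled by library totals. That setting leaves out the wider spread between the BaCl2 libraries and the deposited scale. Alternatives were other pseudocounts, filters and scales, limma voom on fragments, a replicate block, features of 1 name summed, and each library left out. The naming rule took, per compartment, the 8 members with the most fragments, and every tested member past the threshold or with an absolute log2 fold of at least 1. Further members were named after their values were seen, to complete a family. Compartments were assigned from names alone. The members, lists and tests were chosen with earlier results of these data known. No sequence was used.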

Additional observations from a re-analysis of the deposited data

How the results depend on the processing

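No chaperone passed under 12 of the 14 alternatives, and the exceptions were the fit without BaCl2 replicate 2 and the replicate block. Leaving out 1 library gave 0 to 2 members higher and 0 to 4 lower, with 38 to 237 and 185 to 720 of all features. The lone library of a group was then assumed to vary like the others. The replicate block gave 1 member higher and 0 lower, with 404 and 545 of all features. Nothing says that libraries of the same number share a day or culture, and their deviations from the group means correlated at 0.14 over the tested features.

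Over all features 16 were called higher and 97 lower. Calls were 3 and 32 after median-ratio rescaling, 6 and 47 at pseudocount 0.1, 24 and 153 at pseudocount 5, and 7 and 13 both for a mean of at least 1 FPKM and for no filter. They were 3 and 30 from 30 fragments up, 53 and 52 for voom on library totals, and 42 and 153 for voom on the deposited scale. The median log2 fold was -0.19 for cytosolic, -0.21 for endoplasmic reticulum and -0.20 for mitochondrial members. Median-ratio rescaling gave -0.0425 for cytosolic, -0.0565 for endoplasmic reticulum and -0.0294 for mitochondrial members. Voom on library totals gave -0.00698, 0.000639 and 0.0207 for cytosolic, endoplasmic reticulum and mitochondrial members. With 1 library left out, the medians ran from -0.374 to -0.189 for cytosolic, from -0.410 to -0.0728 for endoplasmic reticulum and from -0.307 to -0.0839 for mitochondrial members. The summed level of the tested endoplasmic reticulum members in BaCl2 over control heads was 0.849 in FPKM and 1.04 in CPM. Of the 45 tested members, 23 had the same sign in all 14 settings that kept features apart. The 2 residual degrees of freedom and the difference between the BaCl2 libraries limit the precision.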
